A study of Homo sapiens with 8 samples.

Results

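The passage through G1 was followed by 10 of its regulators in TeloHAEC, a human aortic endothelial line made immortal with telomerase. The genes were CDKN1A, CDKN1B, CDKN1C, CDKN2A, CDKN2B, CDKN2C, CCND3, CDK4, CDK6 and RB1. They were taken by gene symbol as a fixed list, and all 10 have a row among the 34415 of the deposited FPKM table (fragments per kilobase of gene, scaled to the size of the library). The study asked how estradiol, a female sex hormone, acts on these cells under a fatty acid load. Estradiol libraries (n = 4) and control libraries (n = 4) were all labelled wild type and all received palmitic acid, a saturated fatty acid, per the sample titles. The treatment tag of the estradiol samples names only the palmitic acid, so the groups follow the titles. The sources used here give neither doses nor exposure times, and the labels name this line alone. The labels do not say whether replicates were separate cultures, so every p-value rests on library-to-library spread alone, and that spread may be technical.

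In G1, D-type cyclins such as CCND3 bind the kinases CDK4 and CDK6, which phosphorylate the retinoblastoma protein RB1 and so release the E2F factors that drive S phase. The INK4 inhibitors CDKN2A (p16), CDKN2B (p15) and CDKN2C (p18) bind CDK4 and CDK6 themselves, and the CIP/KIP inhibitors CDKN1A (p21), CDKN1B (p27) and CDKN1C (p57) bind cyclin and kinase complexes more broadly. CDKN2A and CDKN1A are the inhibitors most often tied to senescence, the lasting arrest that ageing cells enter, and loss of p16 is a frequent event in cells that escape it. From an alternative first exon CDKN2A also encodes ARF, which protects p53.

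Library depth and identity were as follows. Whole reads could be recovered from the FPKM steps, from 33421051 to 39899258 per library. Of 12 endothelial markers 11 had a mean of at least 1 FPKM, and the exception was VWF. Their summed level lay between 450.0 and 581 FPKM in estradiol libraries and between 450.2 and 603 in control libraries. Of the markers of other cells, 0 of 7 fibroblast genes, 1 of 7 macrophage genes (CD68), 3 of 7 smooth muscle genes (ACTA2, TAGLN and SMTN) and 4 of 7 epithelial genes (KRT8, KRT18, KRT19 and CLDN7) reached that level. LUM, CD163 and TYROBP were at 0 in every library. Summed levels in estradiol and control libraries were 0.155 to 0.253 and 0.188 to 0.263 FPKM for fibroblast, 31.1 to 42.8 and 33.4 to 45.3 for macrophage, 24 to 35.6 and 24.1 to 36.6 for smooth muscle, and 83.5 to 113 and 81.8 to 126 for epithelial markers. Their part in the results was not tested. Estradiol replicate 4 and control replicate 3 stood apart from the other 6 libraries, so the tests of the members are given with and without them. They were picked from these same data, so a narrower spread without them is partly built in. The p-values over the 6 others carry that limit.

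The 6 inhibitors among these genes fell into a silent gene, a nearly silent gene and 4 that were kept. CDKN2A had 0 reads in all 8 libraries, CDKN1C had 10 to 42 reads per library, and CDKN1A, CDKN1B, CDKN2B and CDKN2C were transcribed in every library of both groups. The contrast was found within a single locus for CDKN2A and CDKN2B, neighbours on chromosome 9. The reference sequence before their starts is shown because it belongs to a gene with no reads and to its transcribed neighbour, with CDKN1A, the inhibitor with the highest level, for comparison. Each stretch is the 250 bases 5′ of a RefSeq start (GRCh38.p14), and capitals mark the letters GGGCGG or their reverse complement CCGCCC, the GC box that Sp1-type factors bind. It is the reference, not the sequence of this line.
CDKN2A, start of the p16 transcript, chr9:21974858-21975107, minus strand: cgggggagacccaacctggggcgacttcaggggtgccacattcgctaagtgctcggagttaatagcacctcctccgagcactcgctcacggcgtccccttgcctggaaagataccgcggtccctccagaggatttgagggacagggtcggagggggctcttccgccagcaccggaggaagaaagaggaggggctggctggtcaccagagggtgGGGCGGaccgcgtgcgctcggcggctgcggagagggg
CDKN2A, upstream start of the ARF transcript, chr9:21995325-21995574, minus strand: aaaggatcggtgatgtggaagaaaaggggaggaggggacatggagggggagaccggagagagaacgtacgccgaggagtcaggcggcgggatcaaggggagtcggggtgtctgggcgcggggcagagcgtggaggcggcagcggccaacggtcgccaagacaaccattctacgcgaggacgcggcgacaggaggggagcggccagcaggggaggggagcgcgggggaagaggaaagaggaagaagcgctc
CDKN2B, chr9:22009306-22009555, minus strand: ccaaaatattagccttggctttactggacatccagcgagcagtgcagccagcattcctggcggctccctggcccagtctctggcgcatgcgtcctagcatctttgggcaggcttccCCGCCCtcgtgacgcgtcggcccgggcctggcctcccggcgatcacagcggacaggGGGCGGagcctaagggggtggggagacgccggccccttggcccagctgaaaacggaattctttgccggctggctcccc
CDKN1A, chr6:36678464-36678713, plus strand: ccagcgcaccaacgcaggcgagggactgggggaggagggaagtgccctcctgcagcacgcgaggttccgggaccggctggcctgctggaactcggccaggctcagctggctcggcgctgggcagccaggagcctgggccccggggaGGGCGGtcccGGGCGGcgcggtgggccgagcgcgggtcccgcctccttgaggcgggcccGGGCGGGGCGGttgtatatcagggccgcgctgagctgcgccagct

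The CDKN2A starts lie 20467 bases apart in that reference. The p16 window held 1 GC box and 20 CpG dinucleotides, the ARF window 0 and 24, the CDKN2B window 2 and 18, and the CDKN1A window 4 and 27. Of 35116 RefSeq windows of the same length, 42.6% held at least 1 GC box on either strand, and the median window had 11 CpG. The silent gene and its transcribed neighbour thus had windows of similar base composition, at 66.8% GC for both CDKN2A windows and 66.4% for CDKN2B. Such letters are a description and not binding sites, and methylation was not measured. Of the members, 9 were in that table and CDKN1C was not.

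CDKN2A was the one member without a read. The 0 reads in each library, out of 307201881 over the 8, allow up to 3 reads per library, for counting error only. With the exon length of CDKN2A in GENCODE 29, an annotation that need not be the authors', this limit equals 0.0174 to 0.0207 FPKM. Of 14 widely used housekeeping genes, 0 were listed at 0 in any library. In GENCODE 29, 7.9% of the exon bases of CDKN2A are shared with an exon of CDKN2B-AS1, where reads could be left uncounted as ambiguous. In that annotation the remaining exon bases are its own, but the gene models of the authors are not known and may differ. If the CDKN2A row covers the transcripts of both p16 and ARF, neither was detected at this depth.

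CDKN2B, which encodes p15 and is induced by TGF-beta in many cell types, was kept. It had 8.49, 8.54, 7.85 and 7.98 FPKM in estradiol libraries and 8.44, 7.67, 8.4 and 7.75 FPKM in control libraries (replicates 1 to 4). The groups overlapped, and the highest library was 1.11 times the lowest, the narrowest range of the 9 members with reads. CDKN2B was at least 412-fold higher than CDKN2A in the library with the smallest ratio, taking CDKN2A at the limit of 3 reads and with gene lengths from different sources. The other genes of the locus were read as well. MTAP, a methionine salvage enzyme on the far side of CDKN2A, had 1313, 1020, 1312 and 1489 reads in estradiol libraries and 1301, 1228, 1506 and 1190 in control libraries. DMRTA1, beyond CDKN2B, had 801 to 1179 reads in estradiol libraries and 921 to 1223 in control libraries. CDKN2B-AS1, the antisense RNA known as ANRIL, was low, with 14 to 29 reads in estradiol libraries and 16 to 28 in control libraries (0.14 ± 0.0541 and 0.134 ± 0.0353 FPKM, SD, n = 4 each; exact two-sided permutation p = 0.886). Its level is uncertain, since the sources do not say whether strand was used in counting. CDKN2A-DT, a transcript next to CDKN2A that was added after its values were seen, had 0 reads in all 8 libraries. CDKN2A and CDKN2A-DT, both without reads, thus lay between MTAP and CDKN2B, both read in every library. Genes without reads were common, since only 23471 of the 34415 listed had reads in any library. Loss of the DNA, lack of transcription and reads left uncounted cannot be told apart in these files.

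**Figure D1:**
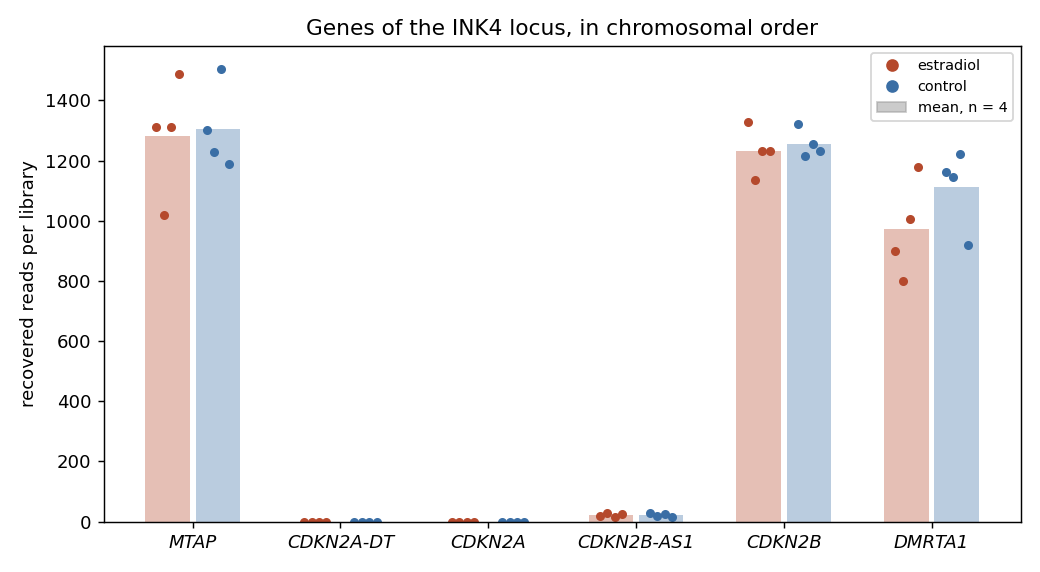
Recovered reads per library (vertical axis) for 6 genes of the INK4 locus in their chromosomal order, in estradiol (left of each pair) and control libraries. Points are libraries and bars are means of 4. CDKN2A-DT and CDKN2A were at 0 reads in all 8 libraries, while MTAP, CDKN2B and DMRTA1 had between 801 and 1506.

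CDKN1A, the p53 target that encodes p21, was by far the most abundant member. It had 279.8, 288, 259.8 and 199 FPKM in estradiol libraries and 288, 272, 210.0 and 276 FPKM in control libraries, from 23135 to 33944 reads. The groups overlapped, and the lowest library of each was the one that stood apart, replicate 4 of estradiol and replicate 3 of control. By mean FPKM it ranked 179 of the 34415 genes. It made up 83.2% to 88.8% of the summed FPKM of the 6 inhibitors among the members, and 87.9% to 88.8% in the 6 other libraries. That sum was 4.63 to 5.21 times the summed FPKM of CDK4 and CDK6. With CDKN2D, the remaining INK4 gene, in the sum these values were 80.5% to 85.7% and 4.77 to 5.4 times. In GENCODE 29 DINOL, a non-coding RNA, shares 4.8% of the exon bases of CDKN1A.

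CDKN1B, which encodes p27 and holds back cyclin E and CDK2 complexes, was the next inhibitor. It had 23.6, 21.9, 22.9 and 28.1 FPKM in estradiol libraries and 25.8, 23.7, 28.5 and 22.8 FPKM in control libraries. Here the libraries that stood apart were the highest of their groups, the reverse of CDKN1A. CDKN2C, which encodes p18 and is an E2F target, had 5.74, 5.38, 4.47 and 3.79 FPKM in estradiol libraries and 5.17, 4.59, 3.49 and 5.22 FPKM in control libraries, again lowest in those 2. CDKN1C, an imprinted gene that encodes p57, had 0.223, 0.478, 0.288 and 0.306 FPKM in estradiol libraries and 0.367, 0.545, 0.137 and 0.284 FPKM in control libraries. With so few reads the groups overlapped fully (0.324 ± 0.109 and 0.333 ± 0.17 FPKM, SD, n = 4 each; exact two-sided permutation p = 1, and 0.6 in the 6 other libraries), and a difference was not detectable at this depth.

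The kinases, the cyclin and their target were present in every library. CDK4, a kinase of D-type cyclins, had 58.4, 55.8, 56.9 and 42.6 FPKM in estradiol libraries and 59.5, 52.8, 43.2 and 56.7 FPKM in control libraries. In GENCODE 29 its exons share 43.2% of their bases with TSPAN31, so its level depends on how the authors counted overlapping genes. CDK6, its partner kinase, had 6.7, 6.48, 6.91 and 8.73 FPKM in estradiol libraries and 6.61, 6.95, 9.21 and 5.9 FPKM in control libraries. CDK4 thus made up 87.9% ± 3.25 of the summed FPKM of the kinase pair in estradiol and 87.8% ± 3.72 in control libraries (SD, n = 4 each; exact two-sided permutation p = 1). Without the libraries that stood apart the shares were 89.5% ± 0.283 and 89.6% ± 1.13 (SD, n = 3 each; exact p = 0.8).

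CCND3, a D-type cyclin, had 17.3, 17.3, 15.4 and 12.8 FPKM in estradiol libraries and 19, 16.5, 12.8 and 17.7 FPKM in control libraries. RB1, the pocket protein that the kinases inactivate, had 12.3, 11.9, 13.5 and 21.6 FPKM in estradiol libraries and 13.4, 13.4, 21 and 11.8 FPKM in control libraries. Over 8 libraries it varied most among the members with at least 1 FPKM, with a coefficient of variation of 27%. Over the 6 others this was 6.3%, below CDKN2C (9.5%) and CCND3 (7.03%). The groups overlapped for CDK4, CDK6, CCND3 and RB1 alike.

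Ordered by mean FPKM over the 8 libraries, the members ran CDKN1A (259), CDK4 (53.2), CDKN1B (24.7), CCND3 (16.1), RB1 (14.9), CDKN2B (8.14), CDK6 (7.19), CDKN2C (4.73), CDKN1C (0.329) and CDKN2A (0). FPKM allows for gene length but not for GC content, so the order between genes is approximate. Neighbours in 2 places had overlapping ranges. CCND3 exceeded RB1 in 6 of 8 libraries and CDKN2B exceeded CDK6 in 6 of 8. The order was reversed in estradiol replicate 4 and control replicate 3 for both pairs. In the 6 other libraries CCND3 (15.4 to 19 FPKM) lay above RB1 (11.8 to 13.5). There CDKN2B (7.67 to 8.54 FPKM) likewise lay above CDK6 (5.9 to 6.95). All other neighbours kept their order in 8 of 8 libraries without overlap, from a ratio of means of 1.52 between CDK6 and CDKN2C to 14.4 between CDKN2C and CDKN1C (CDKN2A, at 0, gives no ratio).

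**Figure D2:**
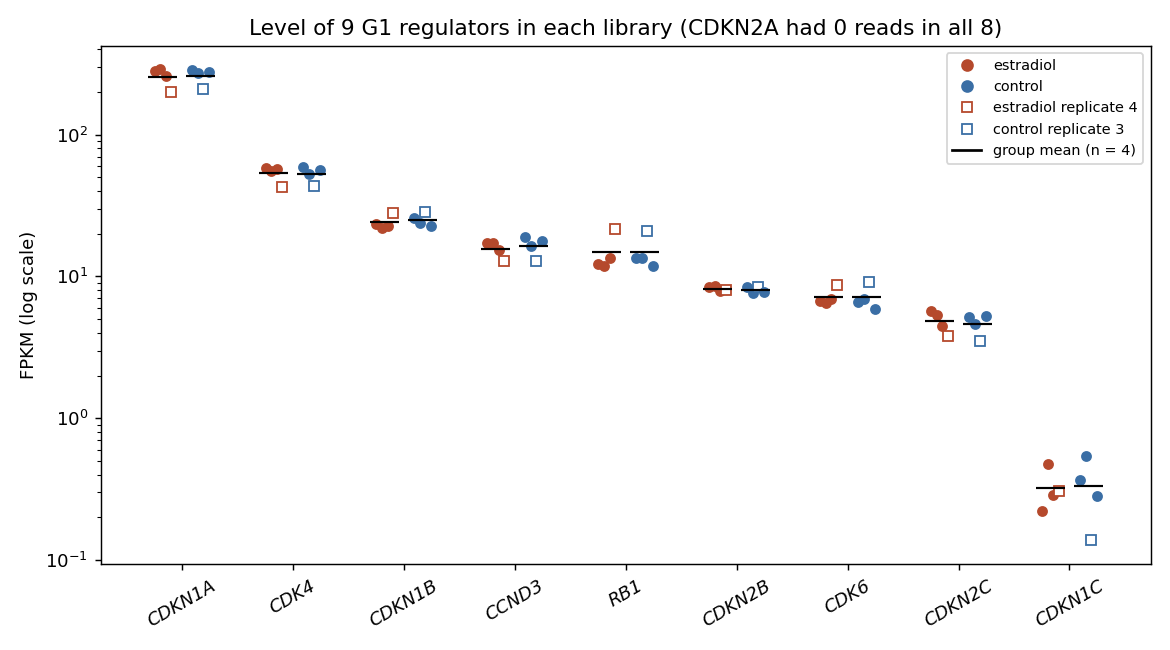
FPKM of 9 members in each library (logarithmic vertical axis), estradiol left and control right within each gene, with a bar at the mean of 4 libraries. Open squares are estradiol replicate 4 and control replicate 3, which sit below the others for CDKN1A (199 and 210.0 FPKM) and above them for RB1 (21.6 and 21 FPKM). CDKN2A had 0 reads in all 8 libraries and is not drawn.

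No member passed the test between estradiol and control. The test was limma on log2(FPKM + 1) over the 10720 genes with a mean of at least 1 FPKM, with Benjamini-Hochberg adjustment over all of them. Of the 8 members in that fit 0 rose and 0 fell past an adjusted p of 0.05, against 0.00% of all genes called. limma-voom on the recovered reads also called 0 genes, with 22 at an unadjusted p under 0.05. At an unadjusted p under 0.05 there were also 0 members, against 0.243% of all genes (26), and groups that did not overlap were seen for 0 members, against 0.532%. That 0.243% is far below the share of 0.05 that unaffected genes would give on average, so 0 calls in this fit carry little weight. Without estradiol replicate 4 and control replicate 3 the share of all genes was 3.85% (413). Log2 fold changes lay between -0.06 for CDKN1B and CCND3 and 0.06 for CDKN2C, with 4 above and 4 below 0. Their median was -0.00408, against -0.000471 over all genes tested.

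The intervals give the range of change for each gene taken alone. They are not adjusted over all genes tested, so they are not the change that a call would have needed, which is larger. For CDKN1A the log2 fold change was -0.03 ± 0.14 (SE), with a 95% interval of 0.78-fold to 1.22-fold on the FPKM + 1 scale (limma adjusted p = 0.999989). CDKN2B, at 0.02 ± 0.08 (SE), had the narrowest interval, 0.9-fold to 1.15-fold. RB1, at -0.02 ± 0.21 (SE), had the widest, 0.71-fold to 1.37-fold. The other 5 members, CDKN1B, CDKN2C, CCND3, CDK4 and CDK6, had limits between 0.77-fold and 1.29-fold. The share of CIP/KIP transcripts in the sum of the 6 inhibitors was 95.5% ± 0.333 in estradiol and 95.7% ± 0.336 in control libraries (SD, n = 4 each; exact two-sided permutation p = 0.371). Without estradiol replicate 4 and control replicate 3 it was 95.7% ± 0.154 and 95.9% ± 0.103 (SD, n = 3 each; exact p = 0.1, the smallest that 3 against 3 can give). Without control replicate 3 alone the exact p was 0.0571, again the smallest that design allows. With CDKN2D in the sum the share was 92.4% ± 0.394 in estradiol and 92.7% ± 0.399 in control libraries (SD, n = 4 each; exact p = 0.314), and exact p = 0.3 in the 6 other libraries. Missing the threshold does not show that the groups were alike.

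**Figure D3:**
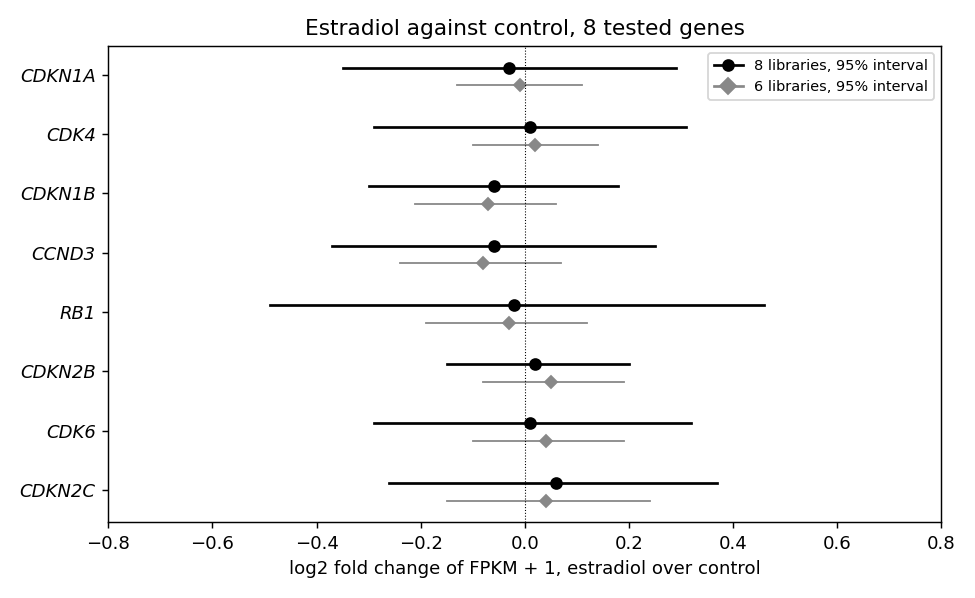
Log2 fold change of FPKM + 1, estradiol over control (horizontal axis), for the 8 tested members. Black points and lines are the estimate and 95% interval from 8 libraries, grey ones from the 6 libraries without estradiol replicate 4 and control replicate 3. Every interval includes 0, from RB1 (-0.49 to 0.46 with 8 libraries) to CDKN1A (-0.13 to 0.11 with 6 libraries).

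Without the 2 libraries that stood apart, which were picked from these same data, the intervals shrank and the calls did not change. In the 6 others the log2 fold change of CDKN1A was -0.01 (95% interval -0.13 to 0.11), that of RB1 -0.03 (-0.19 to 0.12) and that of CCND3 -0.08 (-0.24 to 0.07). CDKN2B stood at 0.05 (-0.08 to 0.19) and CDKN1B at -0.07 (-0.21 to 0.06). In that fit 0 members passed at an adjusted p under 0.05, against 0.00% of the 10733 genes, and the lowest unadjusted p of a member was 0.23, for CDKN1B (limma adjusted p = 0.991). In the same 6 libraries 413 genes (3.85%) had an unadjusted p under 0.05. Between those 2 libraries themselves, estradiol replicate 4 minus control replicate 3, the 8 tested members differed by -0.08 for CDKN1A to 0.09 for CDKN2C on the log2 scale, with no replicate behind the value.

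The main difference among the libraries cut across the groups and split the members by base composition. RB1, CDK6 and CDKN1B were above all 6 other libraries in both estradiol replicate 4 and control replicate 3. CDKN1A, CDK4, CCND3 and CDKN2C were below all 6 in both, and CDKN2B lay within their range. RB1 stood at 1.67 and 1.63 times the median of the 6 in estradiol replicate 4 and control replicate 3, and CDK6 at 1.31 and 1.38 times. CDKN1A stood at 0.715 and 0.756 times and CDKN2C at 0.73 and 0.673 times. The 3 raised members had transcripts of 37.3% (RB1), 39.5% (CDK6) and 47.7% GC (CDKN1B), and the 4 lowered ones of 53.6% (CDK4), 56.2% (CCND3) and 58.1% GC (CDKN1A and CDKN2C). CDKN2B had 44.6%. These were 3 and 4 of 8 members, and of all tested genes 34.6% lay above and 43.9% below the other 6 libraries in both. Both shares are close to those of genes at large. Over all tested genes with a reference transcript, the rank correlation across genes between GC content and the deviation of a library was -0.848 in estradiol replicate 4 and -0.869 in control replicate 3, against -0.342 to 0.654 in the others. The labels name no batch, and the cause was not tested.

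**Figure D4:**
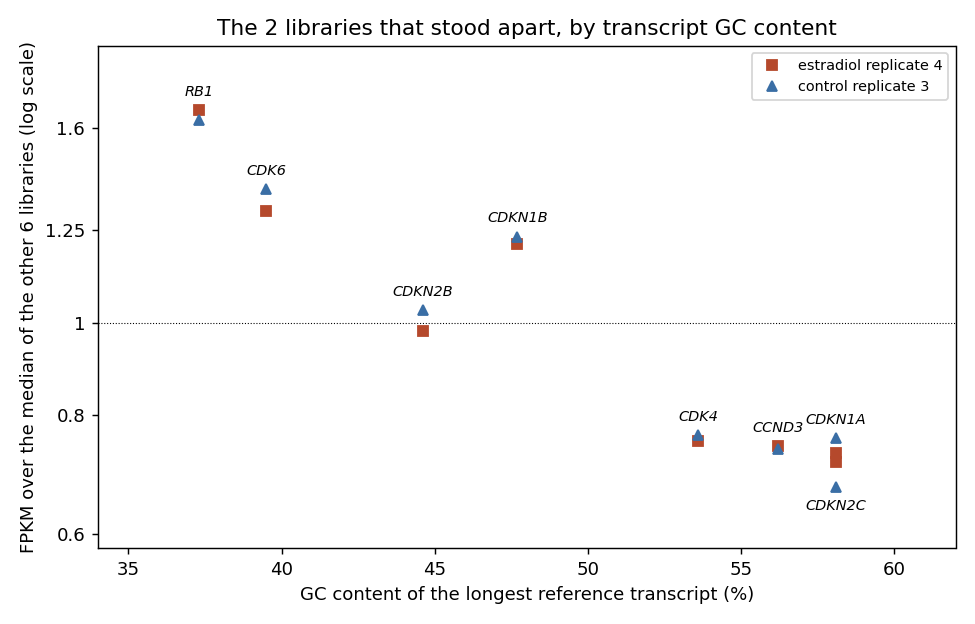
FPKM in estradiol replicate 4 (squares) and control replicate 3 (triangles) over the median of the other 6 libraries (logarithmic vertical axis), against the GC content of the longest reference transcript (horizontal axis, percent), for 8 members. Members under 48% GC lie at or above 0.98 and members over 53% GC at or below 0.762. CDKN1A (0.715 and 0.756) and CDKN2C (0.73 and 0.673) share the same GC content.

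The genes whose pattern over the 8 libraries was most like that of CDKN1A were CYTH2, PARVB and KIF1C, each with a Pearson correlation of 0.997 (n = 8 libraries, log2(FPKM + 1), as a description). They too were lowest in those 2 libraries. CYTH2, an exchange factor for small GTPases, had 17.1 FPKM in estradiol replicate 4 and 18 in control replicate 3, and 22.4 to 25.6 in the rest. PARVB, a focal adhesion protein, had 13.5 and 14.5 against 18.5 to 20.7, and KIF1C, a kinesin motor, 19.9 and 21.3 against 27.1 to 30.2. Over all tested genes, 43.9% were likewise lower in both of those libraries than in the other 6.

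Other genes of the G1/S transition did not pass either. Of 22 such genes 19 could be tested, and 0 were higher and 0 lower with estradiol (median log2 fold change -0.00914, range -0.16 to 0.09). CCND1, the D-type cyclin with the highest level, had 89, 82.5, 87.5 and 88 FPKM in estradiol libraries and 100.4, 94.7, 85.5 and 93.6 FPKM in control libraries. Its log2 fold change was -0.11 ± 0.08 (SE) over 8 libraries and -0.15 ± 0.05 over 6, where its unadjusted p was 0.0142 and its limma adjusted p 0.991. Over those 6 libraries 3.85% of all genes had an unadjusted p under 0.05. CDKN2D, which encodes the INK4 inhibitor p19 and was named after its values were seen, had 11.3, 11.8, 9.15 and 7.91 FPKM in estradiol libraries and 11.4, 9.34, 8.21 and 10.3 FPKM in control libraries. Its mean of 9.92 FPKM was above those of CDKN2B and CDKN2C, and it raised the INK4 sum to between 19.7 and 25.7 FPKM per library, against 11.8 to 14.2 without it. Its log2 fold change was 0.02 ± 0.14 (SE). CCNE2, a cyclin of CDK2, had 1.17 ± 0.278 FPKM in estradiol and 1.43 ± 0.346 in control libraries (SD, n = 4 each). CCND2, the remaining D-type cyclin, named after its values were seen, stood at 0.125 FPKM over the 8 libraries. The D-type cyclin transcripts of this line were thus mainly CCND1, at a mean of 90.2 FPKM, and then CCND3, at 16.1 FPKM.

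Genes of dividing cells were read beside the high CDKN1A. All 14 proliferation genes had a mean of at least 1 FPKM, and 0 were higher and 0 lower with estradiol (median log2 fold change 0.0242). CCNB1, a mitotic cyclin, had 44.4 ± 2.09 FPKM in estradiol and 41.5 ± 4 FPKM in control libraries (SD, n = 4 each). TYMS, which makes thymidylate for DNA synthesis, had 10.8, 10.8, 9.98 and 10.1 FPKM in estradiol libraries and 9.81, 9.4, 9.39 and 9.26 FPKM in control libraries. TYMS alone of the 14 had groups that did not overlap, as did 57 (0.532%) of all genes tested. It did not pass (log2 fold change 0.12 ± 0.07 SE, limma adjusted p = 0.999989). In the 6 other libraries its log2 fold change was 0.13 ± 0.05 (SE), with an unadjusted p of 0.0316 and a limma adjusted p of 0.991. Of all genes, 3.85% had an unadjusted p under 0.05 in those 6 libraries. In bulk samples the share of cells that divide and the RNA per cell cannot be told apart.

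Senescence-linked genes other than the inhibitors were mixed in level. Mean FPKM over the 8 libraries was 489 for GDF15, 473 for CXCL8, 102 for IGFBP7, 71.5 for HMGB2, 45.9 for MDM2 and 34.3 for IL6. It was 0.878 for BMI1, 0.403 for IGFBP5 and 0.359 for IL1B. These genes were named after their values were seen. Of 18 such genes 15 could be tested, and 0 were higher and 0 lower with estradiol (median log2 fold change -2.85e-05). LMNB1, lamin B1, which senescent cells lose, had 7.46 ± 0.288 and 7.03 ± 0.532 FPKM in estradiol and control libraries (SD, n = 4 each). IL1A, an upstream cytokine of the secretory programme, had 5.44, 5.06, 5.13 and 9.07 FPKM in estradiol libraries and 5.04, 4.43, 6.83 and 4.8 FPKM in control libraries, highest in the libraries that stood apart. Endothelial cells also express several of these genes without senescence.

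TERT, the catalytic subunit of telomerase, by which such lines are made immortal, was read at 76.2, 74.3, 69.3 and 54.3 FPKM in estradiol libraries and 83.8, 71.5, 49.2 and 75.6 FPKM in control libraries. Reads of an introduced copy and of the native gene cannot be told apart in the table. Its groups overlapped, with a log2 fold change of -0.02 ± 0.17 (SE).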

How the data were processed

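RNA of 8 TeloHAEC libraries was sequenced, 4 with estradiol and 4 controls. The authors deposited FPKM values, with genes by symbol in rows and libraries in columns. The submitters' processing notes name fastp 0.20.1 and HTSeq (no version). The aligner, build, annotation and strand setting are not given in the sources used. The 10 members, the gene lists and the rule for named genes were chosen with earlier results of these data known. That rule took all members, from each list the genes past the threshold or the 2 with the smallest p plus the most abundant gene, all INK4 locus genes, and the 3 genes most correlated with CDKN1A. A gene that the rule takes is not reported here.

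Whole reads were recovered from the steps between FPKM values. Rebuilt from reads and lengths, 100.0% of values above 0 matched within a relative tolerance of 1e-06. Reads assigned to genes numbered 33421051 to 39899258 per library. The limit of 3 reads for a gene at 0 covers counting error only, and no molecular identifiers are named. Intervals of fold changes rest on library-to-library spread.

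Genes were tested two-sided on log2(FPKM + 1) by limma 3.58.1 (R 4.3.3), whose prior variance followed the mean level, for 10720 genes with a mean of at least 1 FPKM, adjusted by Benjamini-Hochberg, with no block. The scale understates changes of low genes. Shares and genes under the filter used exact permutation over 70 relabellings (smallest p 0.0286). Intervals of fold changes are at 95%. GC content came from GENCODE 29 transcripts, matched by name for 95.6% of tested genes, and promoters from RefSeq. Scripts were checked on simulated data with independent noise and no library that stood apart, so the check does not cover that feature. Other steps ran in Python 3.11.15 (scipy 1.17.1, numpy 2.4.6, matplotlib 3.10.9, pandas 2.3.3). Alternatives covered the pseudocount, filter, scaling, trend, block, libraries left out and limma-voom on the recovered reads.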

Additional observations from a re-analysis of the deposited data

Results flagged for a closer look

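In 5 of 44 groups of 4 libraries a single library lay far from the other 3 (its gap over the range of the group past Dixon's 95% limit for 4 values), and chance alone flags about 1 in 20 groups. Among the members, CDK4 was low at 42.6 FPKM and RB1 high at 21.6 FPKM in estradiol replicate 4. In that library IL1A was high at 9.07 FPKM. PARVB was low at 14.5 FPKM in control replicate 3. All of these lie in the 2 libraries that stood apart. LMNB1 was low at 6.23 FPKM in control replicate 4, which is not one of them.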

How the results depend on the processing

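In each of the 17 alternative fits 0 members and 0 genes passed at an adjusted p under 0.05. Genes with an unadjusted p under 0.05 numbered 26 in the fit as reported, 22 with limma-voom on the recovered reads, 437 with no filter on low values and 413 without control replicate 3 and estradiol replicate 4 together. Libraries of the same replicate number had correlations of deviations of 0.62, 0.07, -0.48 and -0.74 for numbers 1 to 4. Of the 4 estradiol libraries, 0 correlated best with their own number. The libraries that stood apart carry different numbers and weigh heavily in these correlations, so a pairing by number could not be judged this way. With the replicate block 0 genes passed, with 11 at an unadjusted p under 0.05. With 1 library left out, log2 fold changes that were not called changed sign, over ranges of -0.131 to 0.088 for CDKN1A, -0.172 to 0.027 for CCND3, -0.084 to 0.112 for CDK4, -0.07 to 0.127 for CDK6, -0.047 to 0.148 for CDKN2C and -0.201 to 0.149 for RB1. CDKN1B (-0.133 to -0.002) and CDKN2B (0.003 to 0.044) kept theirs. A change of sign was also seen for MTAP (-0.029 to 0.085), TERT (-0.174 to 0.089), IL1A (-0.001 to 0.285), CYTH2 (-0.152 to 0.073), PARVB (-0.132 to 0.1) and KIF1C (-0.142 to 0.098). The median over members ran from -0.026 to 0.031. The difference in the CDK4 share ran from -1.781 to 1.641 percentage points and was -0.161 without control replicate 3 and estradiol replicate 4 together, that in the CIP/KIP share from -0.368 (exact p = 0.0571, without control replicate 3) to -0.051 points and was -0.313 with CDKN2D added to the sum, an alternative chosen after seeing the data, and that of CDKN1C from -0.075 to 0.061 FPKM. The cause was not tested. Depth limits CDKN1C and CDKN2B-AS1, at no more than 42 and 29 reads per library.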
